A study of Saccharomyces cerevisiae with 9 samples.

Results

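Mitochondrial ribosomal protein genes of the budding yeast Saccharomyces cerevisiae were followed in 3 strains grown with and without succinic acid. They were chosen by name: every gene of the array whose symbol is MRPL, MRPS, MRP or RSM followed by a number, without MRP8, gave 65 of the 5449 yeast genes on the array. The names were given for large subunit proteins (MRPL), small subunit proteins (MRPS), small subunit proteins found later (RSM) and mitochondrial ribosomal proteins of either subunit (MRP). The rule itself reads only names, although the group was picked for description with earlier results of these data known. A RefSeq gene table of the R64 assembly listed a ribosomal protein family name for 64 of the 65, and in such a name u marks a protein shared by all ribosomes, b one shared with bacteria, m one specific to mitochondria, L the large subunit and S the small one.

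Mitochondria carry their own ribosome, which descends from a bacterial one and differs from the ribosome of the cytosol in nearly every protein. It makes the few proteins encoded in mitochondrial DNA, most of them core subunits of respiratory complexes III and IV and of the ATP synthase. Nearly all of its own proteins are encoded in the nucleus, made in the cytosol and imported, and yeast needs them to respire but not to ferment glucose.

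Total RNA of the strains NBRC1958, NBRC2018 and KF7, each grown in YPD medium with 0, 20 or 60 g/L of added succinic acid, was hybridized as biotin-labelled cRNA to 9 arrays, 1 for each strain and dose. All cultures were kept at 35 °C and 200 rpm for 6 hours, and the study was set up to examine the yeast response to this acid. Replicates of a dose are therefore the 3 strains, and replicates of a strain are its 3 doses. Each array had a strain and dose of its own, so no combination of strain and dose was repeated. The labels do not state how many cultures stand behind an array, or whether the cultures of a strain came from the same starter. Except in the test of slopes, the p-values measure how unevenly the strains followed the doses. Technical spread is part of this and cannot be told apart from it. The labels give neither the ploidy nor the origin of the strains.

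The array medians over all yeast genes ran from 294 to 311 arbitrary units, and all 65 genes lay above the 95th percentile of other-organism probe sets (14.7 to 15.9 units) on every array. Each of the 65 was read by 1 probe set, and none of these carried a suffix that marks shared sequence. Whether the strains differ in sequence under these probe sets was not tested, so differences between strains are differences in signal. Differences are on a log2 scale after an offset of 16 units was added, which makes changes of weak genes look smaller. A gene is called changed when its p-value from limma, adjusted by Benjamini-Hochberg over all 4359 genes tested, is under 0.05. Of the 65 genes 64 were tested, 37 of the large and 27 of the small subunit, and RSM22 fell below the filter on low signal. The arrays compare equal amounts of labelled RNA, so fewer cells that express a gene and less of its RNA per cell cannot be told apart.

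At 60 against 0 g/L succinic acid, 22 of the 64 tested genes fell, 2 rose and 40 did not pass the test. Among all tested genes 14.2% fell and 8.67% rose. The median difference over the 64 genes was -0.23, against -0.05 over all tested genes, and 48 of the 64 lay below 0. In NBRC1958, NBRC2018 and KF7 the median of the 64 was -0.23, -0.11 and -0.40, where all tested genes had -0.07, -0.05 and -0.04. The difference was negative in all 3 strains for 39 of the 64 genes (60.9%) and for 33.6% of all tested genes.

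**Figure D1:**
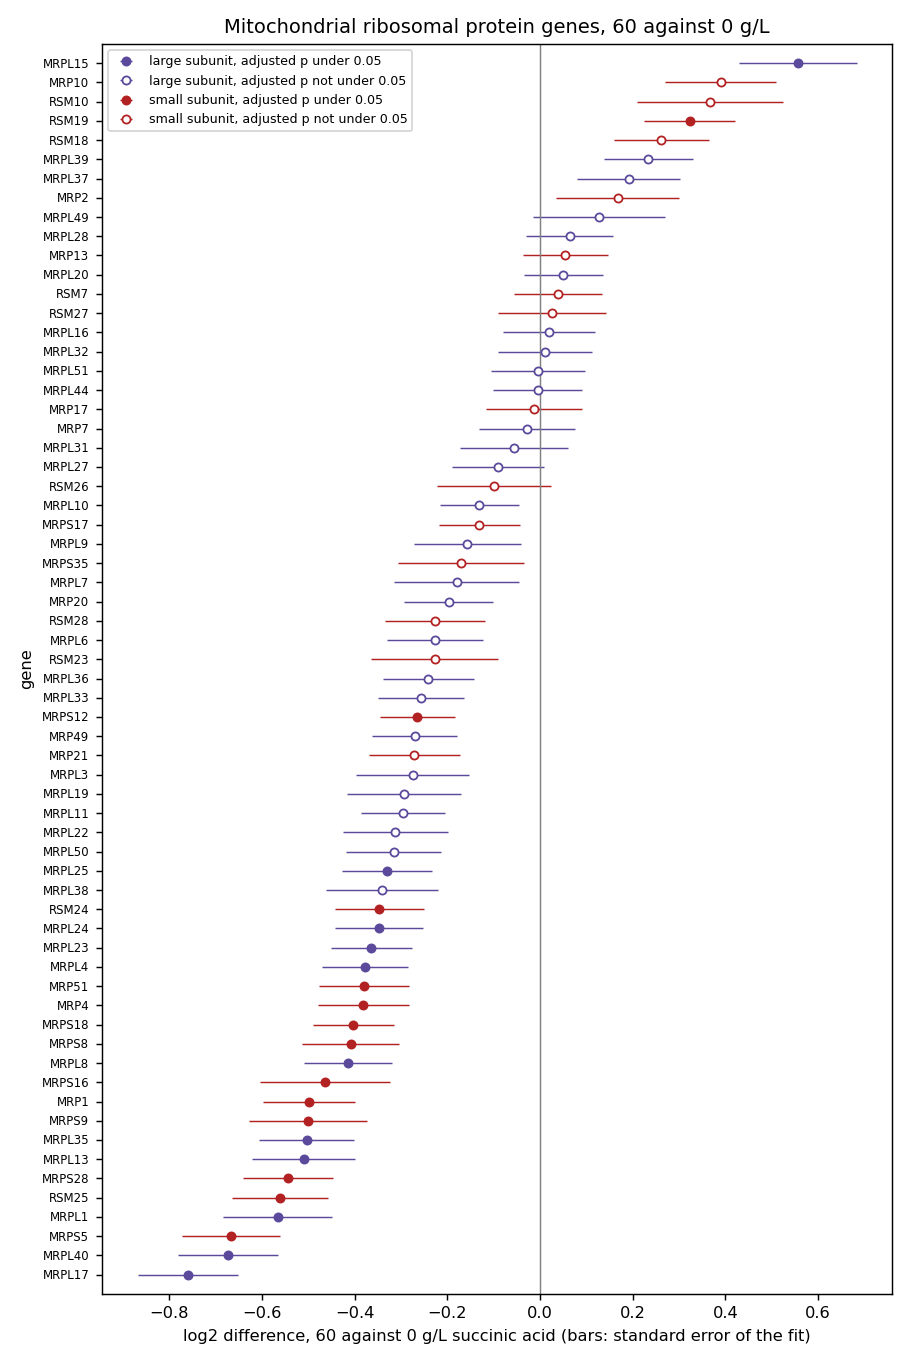
Log2 difference between 60 and 0 g/L succinic acid (horizontal axis) for the 64 tested mitochondrial ribosomal protein genes (vertical axis), from the fit over 9 arrays with bars for its standard error. Filled points passed the adjusted threshold of 0.05: 22 lie left of 0 and 2 (MRPL15 and RSM19) lie right of it.

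The count of called genes depended on single arrays more than the median did. With NBRC1958 at 0 g/L left out there were 3 calls, and with KF7 at 0 g/L left out there were 7. Leaving out NBRC1958, NBRC2018 or KF7 at 60 g/L gave 15, 14 or 14, while the median stayed between -0.28 and -0.16. A fit on fewer arrays leaves fewer residual degrees of freedom for every gene. The share called among all tested genes is not given for these fits or for those below. A loss of calls particular to these genes therefore cannot be told from a general one.

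In the large subunit 10 of 37 genes fell and 1 rose, with a median of -0.24. MRPL17 (YNL252C, family mL46) encodes a protein that bacterial ribosomes lack. Its signal at 0 g/L was 825 in NBRC1958, 736 in NBRC2018 and 849 in KF7. At 20 g/L the signals in the same order of strains were 718, 704 and 679, and at 60 g/L they were 561, 405 and 448. Every array at 60 g/L lay below every array of the lower doses, and the fitted difference from 0 g/L was -0.76 with a standard error of 0.108 (limma, adjusted p = 0.0048). This fall was present in 3 of 3 strains and passed the test whichever array was left out.

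MRPL40 (YPL173W, uL24m) encodes a protein of a universal family that in bacteria starts the assembly of the large subunit. Its signals in NBRC1958, NBRC2018 and KF7 were 641, 583 and 690.5 at 0 g/L. They were 503, 596 and 618 at 20 g/L against 418, 363 and 401 at 60 g/L. Again no array at 60 g/L reached the level of any array at a lower dose, and the difference was -0.67 ± 0.107 (SE, 3 arrays per dose, limma adjusted p = 0.0061).

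MRPL1 (YDR116C, uL1m) encodes the protein that in other ribosomes forms the mobile stalk beside the exit site for tRNA. In NBRC1958, NBRC2018 and KF7 the 0 g/L arrays read 611, 585 and 661, and those with 60 g/L read 459, 424 and 359. The groups did not overlap, KF7 went from the highest signal to the lowest, and the difference was -0.57 (limma, adjusted p = 0.014). Without the NBRC1958 or the KF7 array at 0 g/L MRPL1 did not pass, with a highest adjusted p of 0.064.

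MRPL13 (mL50) and MRPL35 (mL38), both specific to mitochondria, differed by -0.51 and -0.50. The other large subunit genes that fell were MRPL8 (bL17m), MRPL4 (uL29m), MRPL23 (uL13m), MRPL24 (bL28m) and MRPL25 (mL59), by between -0.41 and -0.33. MRPL4 belongs to the family that stands at the exit of the peptide tunnel in bacterial ribosomes. The calls of these 7 genes were each lost without at least 2 of the arrays, the NBRC1958 and KF7 arrays at 0 g/L among them for every gene.

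The other 26 large subunit genes did not pass. Among them, MRP7 (bL27m), whose bacterial relative reaches into the peptidyl transferase centre, had 441, 432 and 427 at 0 g/L against 483, 438 and 362 at 60 g/L in NBRC1958, NBRC2018 and KF7, a difference of -0.03 (adjusted p = 0.87). The 60 g/L arrays lay on both sides of the 0 g/L arrays, with KF7 the low one. MRPL9 (uL3m) differed by -0.16, MRP20 (uL23m) by -0.20 and MRPL36 (bL31m) by -0.24, with adjusted p of 0.34, 0.16 and 0.11.

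In the small subunit 12 of 27 genes fell and 1 rose, with a median of -0.23. MRPS5 (YBR251W, uS5m) belongs to the universal family that in bacteria sits near the decoding site and affects its accuracy. Its signals in NBRC1958, NBRC2018 and KF7 were 531, 459 and 536 at 0 g/L, 416, 459 and 472 at 20 g/L, then 338, 313 and 292 at 60 g/L. All 3 arrays at 60 g/L lay below all 6 others. The difference of -0.67 ± 0.106 (SE, 3 arrays per dose, limma adjusted p = 0.0061) passed whichever array was left out.

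RSM25 (YIL093C, mS23), a protein specific to mitochondria, read 463, 429 and 455 without succinic acid and 287, 333 and 279 with 60 g/L in the same order of strains. MRPS28 (YDR337W, uS15m), of a family that binds the small subunit RNA early in bacterial assembly, had 531, 457 and 502 at 0 g/L against 342, 342 and 322 at 60 g/L. In both genes the doses were apart in every strain, with the smaller step in NBRC2018. They differed by -0.56 and -0.54 (limma, adjusted p = 0.0100 and 0.0086), and both missed the threshold without the NBRC1958 array at 0 g/L, at 0.063 and 0.057.

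MRP1 (YDR347W, mS43) encodes a mitochondria-specific protein related in sequence to manganese superoxide dismutase. It had 581, 551 and 522 at 0 g/L, 427, 496 and 425 at 20 g/L, then 429, 379 and 351 at 60 g/L in NBRC1958, NBRC2018 and KF7. Both the 20 and the 60 g/L arrays lay below all 0 g/L arrays, and at 60 g/L the difference was -0.50 (limma, adjusted p = 0.012, and 0.068 without the NBRC1958 array at 0 g/L). RSM26 (mS42), the other small subunit protein with that fold, read 914, 916 and 945 without the acid and 874, 1048 and 701 with 60 g/L, a difference of -0.10 that did not pass (adjusted p = 0.58).

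MRPS9 (uS9m), of a family whose tail touches the tRNA in the peptidyl site, had 1109, 999.7 and 1099.5 at 0 g/L against 888, 692 and 687 at 60 g/L. It differed by -0.50 with no overlap of the doses. MRPS16 (bS16m), MRPS8 (uS8m), MRPS18 (uS11m), MRP4 (uS2m), MRP51 (bS1m) and RSM24 (mS35) fell by 0.46 to 0.35 on the log2 scale. MRP51, whose protein works with the leaders of the mitochondrial COX2 and COX3 messengers, had 1281, 877 and 1165 at 0 g/L against 928, 764 and 826 at 60 g/L. In NBRC2018 the signal of MRP51 at 0 g/L lay below that of NBRC1958 at 60 g/L, so its doses overlapped although each strain was lower at 60 g/L. Each of these 7 calls was lost without at least 2 arrays, and without the NBRC1958 or the KF7 array at 0 g/L in particular.

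The rises were in 1 gene of each subunit. MRPL15 (YLR312W-A, mL57), a large subunit protein specific to mitochondria, had signals of 399.8, 349.9 and 306 at 0 g/L in NBRC1958, NBRC2018 and KF7. Its signals were 413, 399.8 and 318 at 20 g/L against 666, 601 and 354 at 60 g/L. The NBRC strains were high at 60 g/L and KF7 was not, so KF7 at 60 g/L lay within the range of the 0 g/L arrays. The difference was 0.56 with a standard error of 0.127 (limma, adjusted p = 0.0199), and in the strains it was 0.71, 0.75 and 0.20. It did not pass without the NBRC1958 or NBRC2018 array at 0 or at 60 g/L (highest adjusted p 0.099).

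RSM19 (YNR037C, uS19m), of a family in the head of the small subunit, had 494, 469 and 372 at 0 g/L, 539, 442 and 387 at 20 g/L, then 573, 622 and 484 at 60 g/L. It was higher in 3 of 3 strains, but KF7 at 60 g/L stayed below NBRC1958 at 0 g/L. The difference of 0.32 passed narrowly (limma, adjusted p = 0.049), and in 8 of 9 fits that left out an array it did not.

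Other genes lay close to the threshold. Just inside it was MRPS12 (YNR036C, uS12m, of the family known for setting decoding accuracy), with a difference of -0.26 and adjusted p of 0.0497. Just outside were MRP10 (mS37) with 0.39 and 0.051, and MRPL11 (uL10m) with -0.30 and 0.051. MRP10, a small protein with paired cysteines, had 666, 501 and 497 at 0 g/L against 837, 787 and 579 at 60 g/L in NBRC1958, NBRC2018 and KF7, so the doses overlapped only through KF7. Of the 9 fits without 1 array, none called MRPS12.

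MRPS12 and RSM19 are next to each other in the gene order of the R64 table, the only such neighbours among the 65 genes. MRPS12 had 1042, 1091 and 1528 at 0 g/L against 862, 904 and 1274 at 60 g/L, lower in each strain, whereas RSM19 was higher in each strain. Both genes passed the test, with opposite signs, and each rests on a narrow margin.

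**Figure D2:**
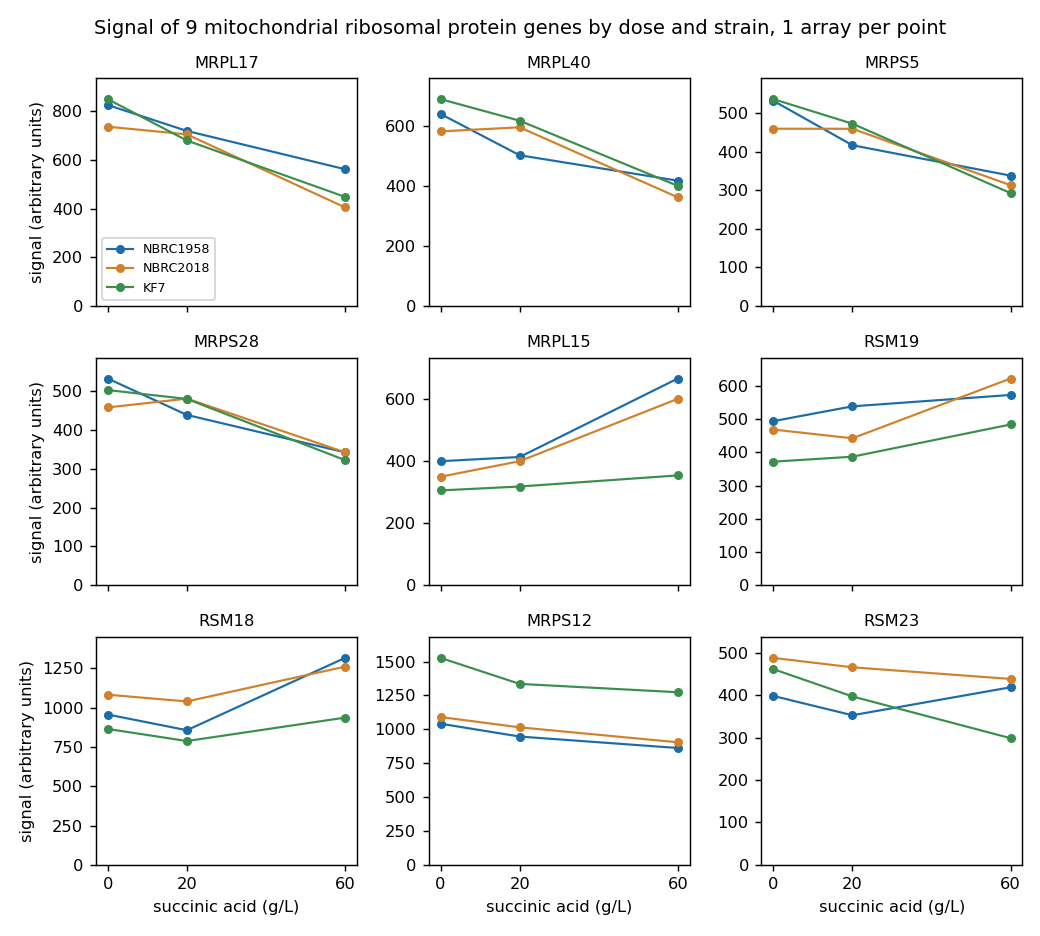
Signal in arbitrary units (vertical axes, starting at 0) against added succinic acid in g/L (horizontal axes) for 9 genes, 1 array per point and 1 line per strain. MRPL17, MRPL40, MRPS5 and MRPS28 are lower at 60 g/L in all 3 strains, MRPL15 rises mainly in NBRC1958 and NBRC2018, and MRPS12 is highest in KF7 at every dose.

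By descent, 15 of the 40 genes of universal or bacterial families fell and 1 rose, with a median of -0.27. Of the 24 genes specific to mitochondria 7 fell and 1 rose, with a median of -0.13. The universal and bacterial group had medians of -0.26, -0.13 and -0.38 in NBRC1958, NBRC2018 and KF7, and the mitochondria-specific group had -0.08, -0.01 and -0.41. This difference between the groups was not tested.

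Without a test, the arrays of the 2 doses were fully apart, with all 60 g/L arrays below all 0 g/L arrays, in 25 of the 64 genes, and fully apart in the other direction in 0. Of all tested genes 15.8% were apart downward and 7.36% upward.

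At 20 against 0 g/L none of the 64 genes passed in either direction (limma). Among all tested genes 0.0229% rose, which is 1 gene, and 0% fell. At an unadjusted p under 0.05 there was 1 of 64, where 3.2 would be expected if no gene differed. The median was -0.12, against 0.01 over all tested genes, and 55 of the 64 lay below 0. The median of the 64 was -0.05 when NBRC1958 at 20 g/L was left out. Medians near -0.12 were not particular to these genes. They were -0.11 for 13 mitochondrial ribosomal proteins under other names, 18 translation and assembly factors and 37 respiratory subunits. For 14 enzymes that charge mitochondrial tRNA the median was -0.10, and for 10 translational activators -0.14. Transcription genes had -0.03, regulators 0.01 and cytosolic ribosomal proteins 0.08.

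The gene of smallest p was MRP1, with a difference of -0.29 (limma, adjusted p = 0.95). The next by p were MRPL1 with -0.26, MRP51 with -0.21, and MRPL27 (mL41) and MRPL6 (uL6m) with -0.19 each. For 59 of the 64 genes the difference was within 0.2 of 0. The strains were unlike in this step, with medians of -0.19 in NBRC1958, -0.02 in NBRC2018 and -0.10 in KF7. All 3 strains were lower in 28 of the 64 genes (43.75%), compared with 12.6% of all tested genes. The 20 g/L arrays lay fully below the 0 g/L arrays in 10 of 64 genes and fully above in 0, where 2.09% and 1.65% of all tested genes did so.

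At 60 against 20 g/L 8 of the 64 genes fell and 2 rose, where 10.2% of all tested genes fell and 5.78% rose. These shares of called genes are alike, and the medians were -0.10 for the 64 genes and -0.06 for all tested genes. Without a test, the 60 g/L arrays lay fully below the 20 g/L arrays in 15 of the 64 genes and fully above in 0. Of all 4359 tested genes 668 were fully below and 300 fully above. All 3 strains were lower in 42.2% of the 64 genes and in 34.0% of all tested genes. The falls were MRPL17 by -0.57, MRPL40 by -0.52, MRPS5 by -0.49, MRPS28 by -0.46, RSM25 by -0.45, MRP4 by -0.39, MRPL35 by -0.38 and MRPS18 by -0.34.

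The rises from 20 to 60 g/L were MRPL15 by 0.46 and RSM18 by 0.38. RSM18 (YER050C, bS18m) had 856, 1039.5 and 787 at 20 g/L against 1317, 1261 and 936 at 60 g/L in NBRC1958, NBRC2018 and KF7. KF7 at 60 g/L lay between the 20 g/L arrays, and its step was the smallest. RSM18 had 956, 1082 and 864 at 0 g/L, and its difference of 0.26 from 0 to 60 g/L did not pass (adjusted p = 0.095). In place of 10 calls there were 6 without KF7 at 0 g/L. Without NBRC1958, NBRC2018 or KF7 at 20 g/L there were 1, 0 or 0, and without NBRC1958 or NBRC2018 at 60 g/L there were 3 or 2. The F test over all doses called 13 of the 64 genes, beside 16.6% of all tested genes. It called 3, 6 and 7 of the 64 without NBRC1958 at 0, 20 and 60 g/L, 6 and 2 without NBRC2018 at 20 and 60 g/L, and 5 without KF7 at any of the doses.

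The step from 0 to 20 g/L and that from 20 to 60 g/L were divided differently among the strains. In NBRC1958 the median of the 64 genes was -0.19 over the first step and -0.0050 over the second. In KF7 it was -0.10 and -0.23, and in NBRC2018 -0.02 and -0.07. Over all tested genes the medians of the 2 steps were -0.0052 and -0.07 in NBRC1958. They were 0.02 and -0.06 in KF7, and 0.0033 and -0.05 in NBRC2018. The second step of the 64 genes in NBRC2018 was thus near that of all tested genes. The steps share the 20 g/L arrays, and the differences between strains in these medians were not tested.

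The KF7 array at 60 g/L was low for most of these genes. Relative to each gene's mean over the 9 arrays, the median of the 64 genes on it was -0.26, and 2 of the 64 lay above their mean. Over all tested genes the median of that array was -0.04. It was the lowest of the 9 arrays for 37 of the 64 genes (57.8%) and the highest for 0, and it was the lowest for 12.0% of all tested genes.

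Among the strains at 60 g/L, KF7 had the lowest signal in 51 of the 64 genes (79.7%, and 33.4% of all tested genes). Low medians in KF7 at 60 g/L were also seen in some lists of related genes, though not in all. Against NBRC1958 at that dose the median was -0.28 for the 64 genes, -0.36 for 13 mitochondrial ribosomal proteins under other names, -0.35 for 18 translation and assembly factors and -0.44 for 14 enzymes that charge mitochondrial tRNA. Against NBRC2018 these medians were -0.26, -0.18, -0.20 and -0.23. Over all tested genes they were 0.01 against NBRC1958 and -0.04 against NBRC2018. At 0 g/L the medians against NBRC1958 were -0.09, -0.09, -0.28 and -0.18, so the factors and the enzymes were already low against that strain. Against NBRC2018 at 0 g/L they were 0.02, 0.08, -0.10 and -0.11. All tested genes at 0 g/L had -0.01 against NBRC1958 and -0.07 against NBRC2018. At 60 g/L the 37 respiratory subunits had medians of -0.0005 against NBRC1958 and 0.06 against NBRC2018. For 11 regulators of mitochondrial genes they were -0.10 and 0.29, for 10 translational activators -0.17 and -0.04, and for 5 transcription genes -0.20 and -0.24. For 126 cytosolic ribosomal proteins they were 0.03 and -0.16. KF7 was the lowest strain in 26 of the 64 at 0 g/L and in 18 at 20 g/L, or 40.6% and 28.1%. Over all tested genes these shares were 34.0% and 34.5%. At 20 g/L NBRC1958 was the lowest strain in 34 of the 64 (53.1%, and 42.7% of all tested genes). At the other end, the NBRC1958 array at 0 g/L had a median of 0.15. It was the highest of the 9 arrays for 20 of the 64 genes (31.25%, and 15.0% of all tested genes). Without the KF7 array at 60 g/L, 10 genes fell and 4 rose at 60 against 0 g/L. With strain KF7 left out the median was -0.16, with 3 falls and 1 rise.

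**Figure D3:**
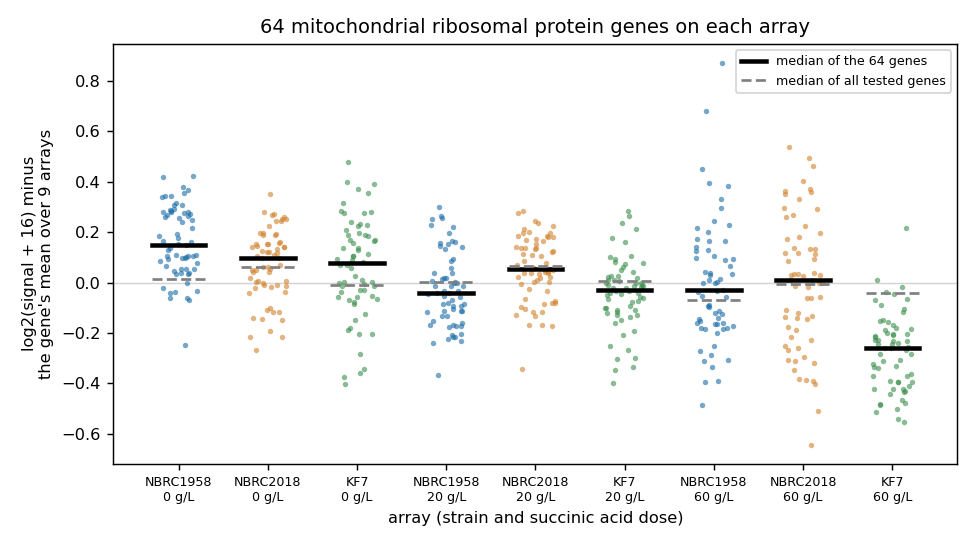
Each point is 1 of the 64 genes on 1 array, as the log2 of signal plus 16 minus that gene's mean over the 9 arrays (vertical axis), by strain and dose (horizontal axis). Black bars are medians of the 64 genes and dashed grey bars medians of all tested genes; the black bar of KF7 at 60 g/L lies at -0.26 and that of NBRC1958 at 0 g/L at 0.15.

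**Figure D4:**
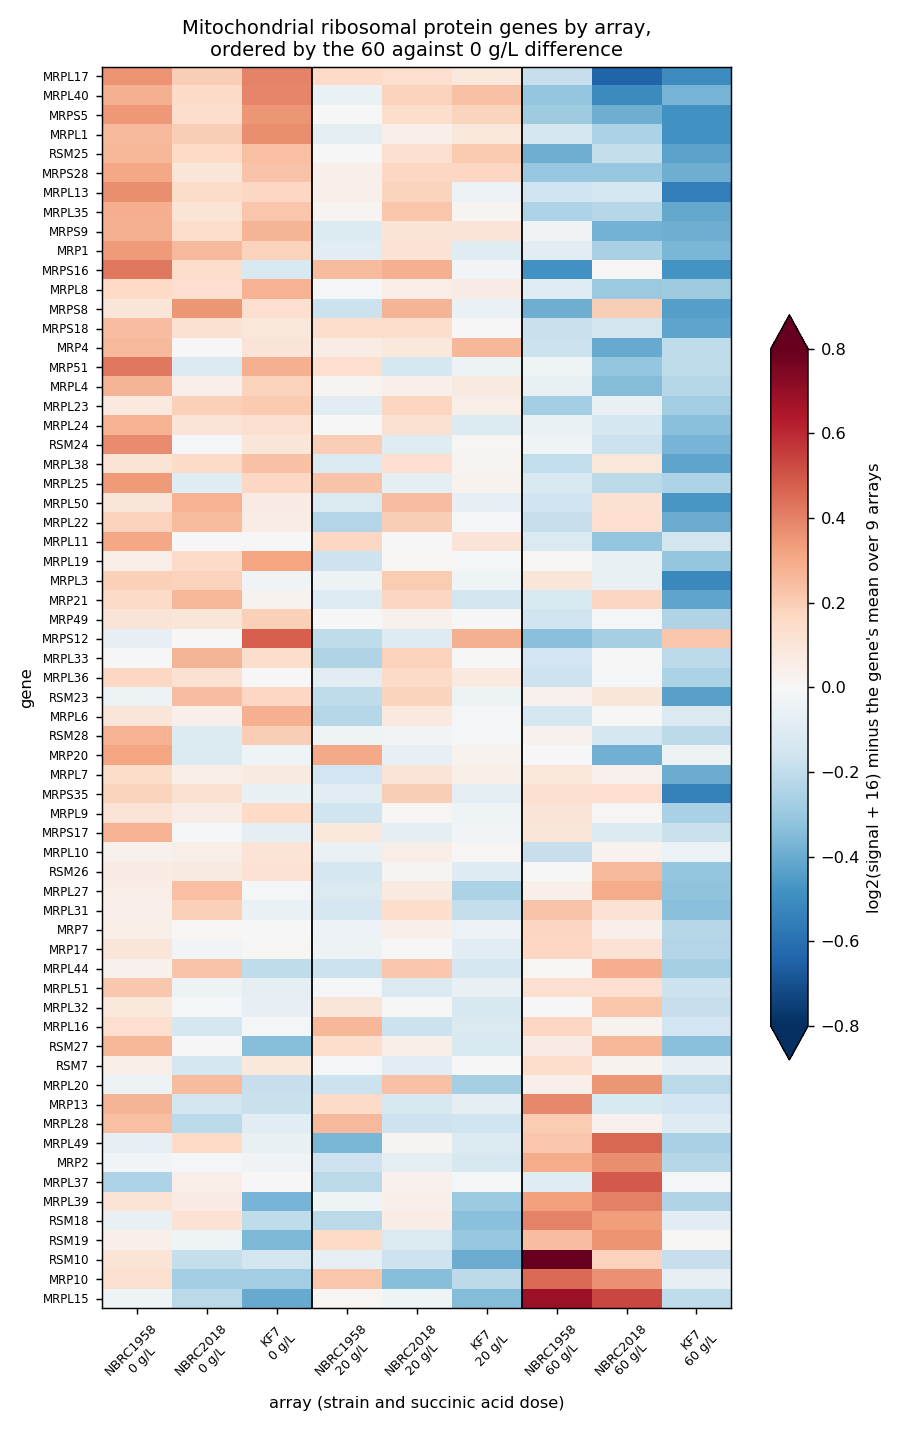
The same values for each of the 64 genes (rows, from the largest fall at the top to the largest rise at the bottom) on each of the 9 arrays (columns, by dose and strain), coloured from -0.8 (blue) to 0.8 (red) on the log2 scale. The upper rows are blue in all 3 columns at 60 g/L, and the lower rows are red in NBRC1958 and NBRC2018 but not in KF7.

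By sign of the difference between 60 and 0 g/L, 39 genes were lower in all 3 strains and 6 were higher in all 3. The 6 were MRPL15, RSM19, MRP10, RSM18, MRPL39 and MRP13. A further 9 genes were higher in both NBRC strains and lower in KF7 (14.1%, and 6.19% of all tested genes), and 7 were higher in NBRC2018 alone. The group of 9, named here after its values were seen, held MRP17, MRP7, MRPL49, MRP2, RSM7, MRPL16, RSM10, MRPL20 and MRPL37, and none of the 9 passed the test.

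RSM10 (YDR041W, uS10m) had the widest spread of these. Its signals in NBRC1958, NBRC2018 and KF7 were 1100.4, 891 and 919.6 at 0 g/L, 973, 908 and 772 at 20 g/L, then 1881, 1161 and 895 at 60 g/L. The array of NBRC1958 at 60 g/L was far above the others, and the difference over the 3 strains was 0.37 (adjusted p = 0.12).

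A line on dose was fitted in each strain to ask whether slopes differed. The F test of the slopes sets their differences against the scatter of the arrays around these lines, with 3 residual degrees of freedom. None of the 64 genes passed this F test (limma), and 0% of all tested genes did. The smallest p among the 64 was that of RSM23 (YGL129C, mS29, the yeast relative of human DAP3, a GTP-binding protein). RSM23 had 398, 353 and 419 at 0, 20 and 60 g/L in NBRC1958, 488, 466 and 439 in NBRC2018, and 462, 397 and 299 in KF7. Its slope over 60 g/L was 0.11, -0.15 and -0.60 in these strains (unadjusted p = 0.039, adjusted 0.51). MRPL38 (uL14m) and MRPS16 followed, with adjusted p of 0.52 and 0.53. At an unadjusted p under 0.05 there was 1 of the 64 and 421 of all 4359 tested genes. That none passed does not show that the slopes were equal.

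Of the summed squares over the 64 genes, dose took 48.5%, strain 35.6% and the remainder 15.9%. Over all tested genes the summed squares gave 34.2% to dose, 51.8% to strain and 14.0% to the remainder. These sums weigh on the genes that vary most. Gene by gene, the median share was 39.5% for strain and 39.5% for dose among the 64, and strain took more than dose in 31 of them. The F test over strains called 16 of the 64 genes, beside 36.2% of all tested genes. With NBRC1958 left out at 0 or 20 g/L it called 4, without NBRC2018 at 0, 20 and 60 g/L it called 6, 4 and 8, and without KF7 at these doses 5, 7 and 6.

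KF7 was higher than both NBRC strains in MRPS12. The mean of its 3 doses was 1379 ± 132 in KF7, 950.3 ± 89.8 in NBRC1958 and 1003 ± 93.8 in NBRC2018 (SD, n = 3 doses). All 3 KF7 arrays were above all 6 others, and KF7 differed from NBRC1958 by 0.53 (limma, adjusted p = 0.0051) and from NBRC2018 by 0.45. The first of these calls was kept in all 9 fits without 1 array. The second missed without the NBRC2018 or KF7 array at 0 g/L.

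Against NBRC1958, KF7 was higher in 1 of the 64 genes and lower in 8, where 9.45% of all tested genes were higher and 9.66% lower. The lower genes with the largest differences were RSM10 (-0.55), MRPL15 (-0.54), MRP10 (-0.45), MRPL39 (bL33m, -0.44) and RSM27 (mS33, -0.42). The RSM10 call was kept in none of the 9 fits that left out an array, with adjusted p of 0.054 to 0.13. Against NBRC2018, KF7 was higher in 1 and lower in 8, where 7.13% and 9.29% of all tested genes were. MRPL20 (YKR085C, mL58), a mitochondria-specific large subunit protein, had 562, 531 and 551 at 0, 20 and 60 g/L in KF7 and 767, 759 and 823 in NBRC2018. Its signal was lower in KF7 at every dose, by a difference of -0.50 that was called whichever array was left out. MRPL39 (-0.47), MRPL44 (mL53, -0.44), MRPL27 (-0.40) and MRPS8 (-0.39) came next.

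NBRC2018 against NBRC1958 gave 3 higher and 4 lower genes of 64, where 16.3% of all tested genes were higher and 11.5% lower. The higher genes were MRPS8 (0.43), MRPL37 (mL54, 0.38) and MRPL20 (0.34). The lower genes were MRP13 (mS44, -0.40), MRP20 (-0.39), MRP51 (-0.36) and MRPL28 (mL40, -0.35). The medians of the 64 genes were -0.0025 for this pair of strains, -0.14 for KF7 against NBRC1958 and -0.13 for KF7 against NBRC2018. These last medians came mainly from 60 g/L, where they were -0.28 and -0.26, while at 0 g/L they were -0.09 and 0.02. With KF7 at 60 g/L left out of the fit they were -0.06 and -0.03. Apart from MRPS12 and MRPL20 in KF7, every strain call was lost without at least 2 arrays.

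The strain counts also changed when single arrays were left out, again without the share over all tested genes beside them. For NBRC2018 against NBRC1958 the count of 7 was 0 and 1 without NBRC1958 at 0 and 20 g/L, and 1, 0 and 2 without NBRC2018 at 0, 20 and 60 g/L. For KF7 against NBRC1958 the count of 9 was 1 and 2 without NBRC1958 at 0 and 20 g/L, 5 without NBRC2018 at 20 g/L, and 2, 3 and 1 without KF7 at 0, 20 and 60 g/L. For KF7 against NBRC2018 the count of 9 was 4 and 4 without NBRC1958 at 0 and 20 g/L, 1, 2 and 2 without NBRC2018 at 0, 20 and 60 g/L, and 1, 4 and 2 without KF7 at the same doses.

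Genes that work with the mitochondrial ribosome were read from lists chosen by function and measured on the same arrays. Their counts at 60 against 0 g/L stand beside the 14.2% of all tested genes that fell and the 8.67% that rose. Among 13 tested mitochondrial ribosomal proteins under other names, 2 fell (15.4%, near the share over all tested genes) and none rose, with a median of -0.18. FYV4, of the small subunit, had 179, 158 and 205 at 0 g/L against 93.1, 103 and 118 at 60 g/L, and differed by -0.70. RML2 of the large subunit (uL2 family) differed by -0.51. Every strain was lower in both genes.

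Of 18 translation factors and ribosome assembly proteins 4 fell (22.2%), with a median of -0.28. They were AIM23 (-0.75), the mitochondrial initiation factor of the bacterial IF3 type, MTG1 (-0.46), a GTPase of large subunit assembly, OMS1 (-0.40) and OXA1 (-0.35), which inserts the nascent proteins into the inner membrane. Of 14 enzymes that charge mitochondrial tRNA 4 fell (28.6%), with a median of -0.26. MSF1 and MSY1 attach phenylalanine and tyrosine, and GTF1 and HER2 belong to the amidotransferase that makes glutaminyl-tRNA. None of either list rose.

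The 10 tested activators that act on single mitochondrial messengers moved both ways, with 4 lower and 2 higher and a median of -0.21. PET494 (-0.65) and PET54 (0.63) both serve the COX3 messenger. PET54 had 616, 616 and 296 at 0 g/L against 1226, 986 and 354 at 60 g/L, so the NBRC strains were high and KF7 was not, while PET494 was lower in each strain. MSS51 (-0.61), for COX1, fell, and CBP1 (0.79), which stabilizes the cytochrome b messenger, rose.

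None of 5 tested genes of mitochondrial transcription passed, with a median of -0.13, and the closest was ABF2 (-0.33, adjusted p = 0.052), which packs mitochondrial DNA. Of 11 regulators tied to mitochondrial genes 2 fell and 2 rose. HAP2 (-1.14) and HAP5 (-0.72), subunits of the CCAAT-binding activator of respiratory genes, fell in level, and HAP1 (0.49) and SFP1 (0.46) rose. The median of these 11 genes was -0.13.

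The ribosomal proteins of the cytosol gave other values on the same arrays, with 3 higher and 0 lower of 126 and a median of 0.13. By strain this median was 0.29 in NBRC1958, 0.06 in NBRC2018 and 0.03 in KF7. On the NBRC1958 array at 0 g/L the 126 genes had a median of -0.33 relative to each gene's mean, with 1 gene above its mean. Of 37 subunits of complexes III and IV and the ATP synthase, which join the products of the mitochondrial ribosome, 2 rose (COX5B and TIM11), none fell and the median was -0.04. In NBRC1958, NBRC2018 and KF7 the median of these 37 was -0.16, 0.21 and -0.07. All these lists share the 0 g/L arrays with the 64 genes, so their values are set side by side only. Of the 25 calls among these lists, that of FYV4 was the only one kept when the NBRC1958 array at 0 g/L was left out.

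**Figure D5:**
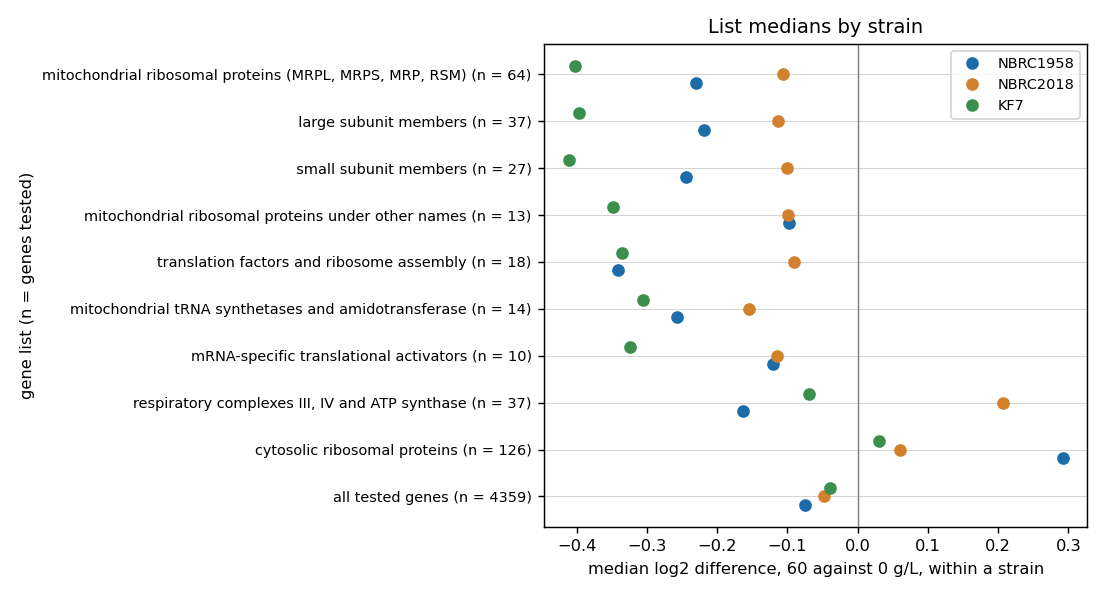
Median log2 difference between 60 and 0 g/L (horizontal axis) within each strain (points) for the mitochondrial ribosomal protein genes, their subunits and other lists of genes (vertical axis, with the number tested). The 64 genes lie at -0.23, -0.11 and -0.40, and all tested genes between -0.07 and -0.04.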

How the data were processed

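The authors deposited 1 linear intensity value per probe set and array for 9 one-colour arrays; scanning, background correction, normalization and summary are not given in the sources used here, and the deposited scale was kept. Probe sets were named through a 2016 array annotation, and 12 symbols were updated through a RefSeq table (R64). Where a gene had several probe sets, that of the highest mean was used. Log2(intensity + 16) went into limma's lmFit and eBayes (version 3.58.1, R 4.3.3) with strain and dose as additive factors, which leaves 4 residual degrees of freedom. The lowest 20% of genes by mean log2 value (1090 genes, under a signal of 118) were left out. P-values were adjusted by Benjamini-Hochberg over 4359 genes. The number of arrays limits the precision.

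Strain is the replicate block: deviations from dose means correlated at 0.59 to 0.87 between arrays of the same strain. Between arrays of different strains the correlations were -0.55 to -0.14. Deviations of the strains from a dose mean sum to 0, so this negative range is not separate evidence for the block. The fit was tested on simulated data. For 60 against 0 g/L over 4359 genes, changes of 0.5, 1 and 2 on the log2 scale were given to 80, 80 and 40 genes. The fit recovered 52.5%, 93.75% and 100% of them, with 9 false calls. These are fewer changed genes than the 995 (22.8%) called in the data. The adjusted threshold depends on that share, so the recovery rates may not carry over.

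The genes and companion lists were chosen with earlier results of these data known. Genes named are those of the largest changes past each test (up to 10 per direction for doses, 5 for strains), those of smallest p where none passed, all below the filter, and a fixed set of members of known role. No promoter or protein sequence was used here. Alternatives covered the normalization, filter, offset, fit options, block and the arrays used; leaving out whole strains was added after the data were seen.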

Additional observations from a re-analysis of the deposited data

How the results depend on the processing

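The median of the 64 genes at 60 against 0 g/L lay between -0.28 and -0.16 under every alternative run, and no called gene changed sign. The median for NBRC2018 against NBRC1958, near 0, ran from -0.08 to 0.06 and has no settled sign, and those of the other dose and strain pairs were negative throughout. The counts moved. Without the replicate block of strain, 60 against 0 g/L called 4 of 64 genes in place of 24, 60 against 20 g/L called 0 in place of 10 and the F test over doses 0 in place of 13. In a fit of only the arrays compared the first 2 counts were 8 and 2. With strain NBRC1958, NBRC2018 or KF7 left out, an alternative added after the data were seen, they were 2, 7 and 4 for 60 against 0 g/L, 0, 0 and 1 for 60 against 20 g/L, and 0, 0 and 1 for any dose.

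Without the dose term, the calls for NBRC2018 against NBRC1958, KF7 against NBRC1958 and KF7 against NBRC2018 were 1, 2 and 2 in place of 7, 9 and 9. Median centring gave 5 for the last. Leaving out 1 array gave 3 to 19 calls for 60 against 0 g/L, 0 to 8 for 60 against 20 g/L and 2 to 9 for any dose. The same gave 0 to 9 for NBRC2018 against NBRC1958, 1 to 8 for KF7 against NBRC1958, 1 to 12 for KF7 against NBRC2018 and 4 to 18 for any strain. At 20 against 0 g/L and for the slopes no setting called any of the 64 genes. The cause of these shifts was not tested, beyond the loss of arrays or of the block.

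Other scalings gave fewer falls at 60 against 0 g/L, where the main fit had 2 rises and 22 falls. Quantile normalization gave 3 rises and 16 falls, and median centring 3 and 17, with MRP10 as the added rise. MRPS12 and MRPS16 were among the genes that lost their calls under both, and RSM19 lost its call with an intensity trend.

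Every gene had signal over background on all arrays. RSM22, which is needed for assembly of the small subunit, fell below the filter with 89.6, 92.2 and 86.8 in NBRC1958, 113, 98.6 and 120 in NBRC2018, and 55.0, 69.4 and 55.5 in KF7 at 0, 20 and 60 g/L. With no filter it was lower in KF7 than in NBRC2018 by a log2 difference of -0.74 (limma, adjusted p = 0.0054) and did not pass at 60 against 0 g/L (0.01, adjusted p = 0.94).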
